A study of Caenorhabditis elegans with 15 samples.

Results

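The data described here are the heat response of early Caenorhabditis elegans embryos that lack the histone methyltransferase MET-2, measured by RNA sequencing. The members were the 3 libraries of met-2 deletion embryos exposed to 37 °C and the 3 libraries of the same strain kept at 20 °C, 6 of the 15 libraries in the series, and all genes of the count table were compared between them. Of 20392 genes in the table, 15471 had enough reads to be tested. The mutant strain carries met-2(n4256) III and is called met-2Δ. The heat stress (HS) lasted 1 h, was given to cultures of worms and ended with the extraction of RNA. The wild type (WT, strain N2 Bristol) was treated the same way, with 3 libraries at each temperature, and serves here for the comparison of the heat response between genotypes. The remaining 3 libraries come from a met-2 mutant with deficient catalytic activity (met-2-CD), which was kept at 20 °C. Embryos were collected before the bean stage from synchronized cultures, in independent biological replicates, so each library is a population of embryos of mixed early stages whose mothers were also exposed to the heat.

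In C. elegans, as in other animals, a sudden rise in temperature unfolds proteins and activates the heat shock factor HSF-1, which binds the promoters of chaperone genes and induces them within minutes. Small heat shock proteins hold unfolded proteins, HSP70 proteins and their DNAJ partners refold them, HSP110 exchanges the nucleotide of HSP70, and HSP90 with its co-chaperones completes the folding of kinases and receptors. MET-2 is the worm counterpart of SETDB1. It deposits the first methyl groups on lysine 9 of histone H3, a mark of silent chromatin, and SET-25 adds the last one.

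The deletion was visible in the counts. In met-2Δ, met-2 had 32.5, 34.2 and 33.97 CPM (read counts relative to the library total, after scaling for library size and composition) at 20 °C and 59.4, 62.7 and 58.95 CPM at 37 °C. The WT means were 313 ± 6.27 CPM (SD, n = 3) at 20 °C and 276 ± 9.87 CPM at 37 °C, so all 6 met-2Δ libraries lay far below WT. The gene lies on chromosome III, 8375300 to 8380848 (WBcel235 annotation), and the counts, made over its exons, do not show which of them the residual reads come from. The 6 met-2Δ libraries held 16.15 to 26.26 M counts, with the 37 °C libraries at 16.15 to 21.36 M and the 20 °C libraries at 20.05 to 26.26 M. Replicates correlated at 0.9974 to 0.9985 (Pearson, across genes). Markers of embryos were present: the maternal mRNA pos-1, needed for posterior cell fate, was at 904 CPM at 20 °C and the endoderm specification gene end-1 at 10.8 CPM, whereas the yolk protein genes vit-1 to vit-6 of the adult intestine summed to 2.28 to 2.76 CPM at 20 °C and 6.03 to 7.62 CPM at 37 °C. The 30 major sperm protein genes summed to less than 1 CPM in each of the 6 libraries.

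Heat raised a large group of genes by a large factor and lowered few genes by as much. A gene was called when its false discovery rate (FDR) in the quasi-likelihood F test of edgeR was below 0.01 and its fold change above 4. By this rule 975 genes (6.30% of those tested) were higher and 82 (0.530%) lower at 37 °C than at 20 °C. With FDR alone, 2673 genes (17.3%) rose and 3282 (21.2%) fell, and the median log2 fold change (log2FC) of all tested genes was 0.04. In the following, rose and fell mean that FDR limit alone, and called means both limits. The 3 libraries at 37 °C lay above all 3 at 20 °C for 974 of the 975 genes called higher, against 34.3% of all tested genes, and below them for all 82 genes called lower, against 32.3%. At the limit of 4-fold, glb-7 was the last gene inside (log2FC 2.0004) and F25B3.4 the first outside (1.9984). On the lower side these were fbxb-112 (-2.0068) and gst-4 (-1.9937).

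**Figure D1:**
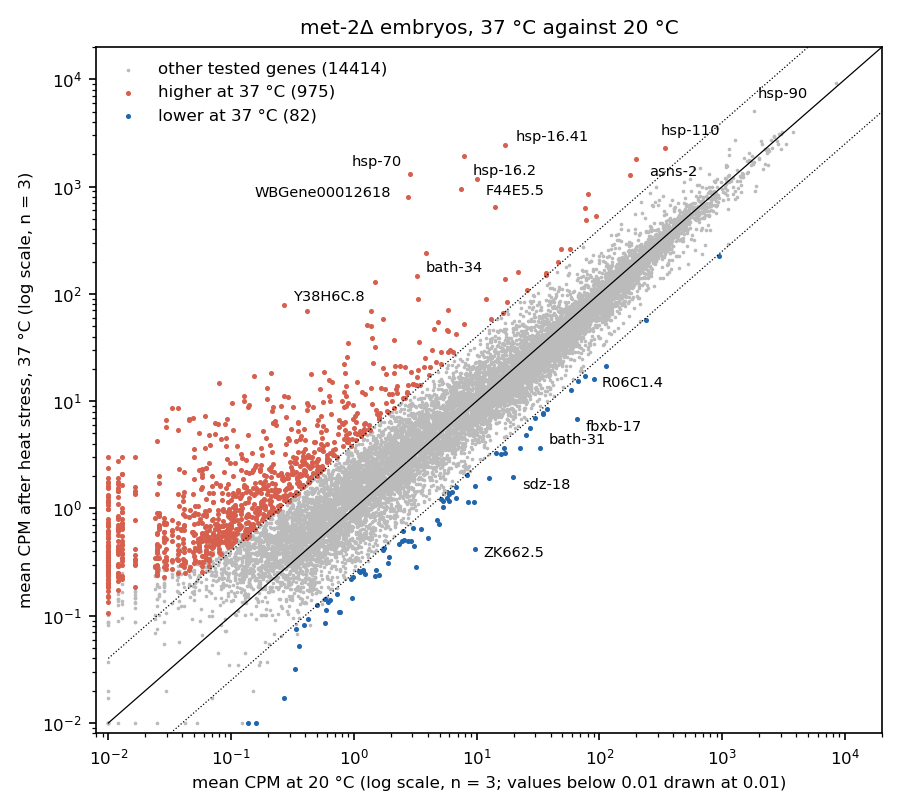
Mean CPM of each tested gene in met-2Δ embryos at 20 °C (x axis) and 37 °C (y axis), 3 libraries each, both on log scales. Orange points are the 975 genes called higher and blue points the 82 called lower, the solid line marks equal levels and the dotted lines a 4-fold change. Most orange points lie below 1 CPM at 20 °C. The labelled hsp genes lie above 1000 CPM after heat, as do F44E5.5 and asns-2.

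Most of the genes called higher were almost silent before the heat. Their median level was 0.108 CPM at 20 °C and 1.19 CPM at 37 °C, and 860 of the 975 (88.2%) were below 1 CPM at 20 °C, against 26.7% of all tested genes. The filter on low counts keeps a gene that is almost silent in this group only if it reaches the minimum in other libraries, heated ones included. Genes silent throughout were not tested, so the difference from all tested genes was partly set by the filter. After heat 446 of them were still below 1 CPM, 195 reached 5 CPM and 25 reached 100 CPM. For 75 of the 975 the 3 libraries at 20 °C held no read at all and for 194 they held 1 to 3 reads in total, so their fold changes rest on a floor. A floor of 3 counts in each library averaged 0.125 CPM at 20 °C. The median level of 0.108 CPM was below it, so more genes than these lay near the floor. The median log2FC of the 975 genes was 3.18, and 3.0 with the genes without a read set to the bound that 3 counts per library allow. The 10 genes with the largest rise in CPM made up 66.0% of the summed rise of the 975 called genes. Over all tested genes the 10 largest rises made up 17.5% of the summed rise. Pseudogenes were 64 of the 975 (6.56%), against 2.07% of the tested genes. The genes called lower had a median of 3.35 CPM at 20 °C and 0.569 CPM at 37 °C.

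The strongest induction was that of the HSP70 gene hsp-70, an inducible cytosolic chaperone. It had 2.06, 3.73 and 2.73 CPM at 20 °C and 1570, 1158 and 1176 CPM at 37 °C. All heated libraries lay far above all unheated ones, and replicate a was the highest of them. The log2FC was 8.83 ± 0.27 (SE, n = 3 against 3; edgeR FDR 3.8e-12), the highest of the called genes with at least 5 CPM in the heated group and no overlap. The gene lies on chromosome I, 9320325 to 9322519, on the minus strand.

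The small heat shock protein genes hsp-16.2 and hsp-16.41 reached the highest level per unit length of the genes called higher that are described here. hsp-16.2 had 7.92, 9.06 and 6.74 CPM at 20 °C and 2391, 1670 and 1694 CPM at 37 °C (log2FC 7.91 ± 0.21, edgeR FDR 4.8e-13). hsp-16.41 had 16.9, 17.3 and 16.8 CPM at 20 °C and 3015, 2124 and 2161 CPM at 37 °C (log2FC 7.16 ± 0.18, edgeR FDR 3.6e-13). In both genes the groups were far apart, and replicate a was the highest of the heated libraries. Per kilobase of exon (RPKM), hsp-16.41 moved from 26.5 to 3802, or from rank 4701 to rank 7 among 19870 genes, and hsp-16.2 from 13.7 to 3319, or from rank 6163 to rank 9. The other 4 genes of this family, duplicated copies that the annotation names hsp-16.1 and hsp-16.48, were listed at 0 in all 6 libraries. Reads that fit more than 1 copy have no unique alignment and were not counted, so the table does not show whether these copies were induced.

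F44E5.4 and F44E5.5, a pair of HSP70 genes that lie head to head on chromosome II, rose together. F44E5.4 had 8.39, 7.83 and 6.35 CPM at 20 °C and 1049, 933 and 838 CPM at 37 °C (log2FC 6.96 ± 0.13, edgeR FDR 9.6e-15). F44E5.5 had 11.61, 9.35 and 9.17 CPM at 20 °C and 1327, 1218 and 1001 CPM at 37 °C (log2FC 6.88 ± 0.14, edgeR FDR 2.8e-14). Both genes were at a level of several CPM in each unheated met-2Δ library, and the order of the 3 libraries was the same in the pair at both temperatures. These genes are paralogues, so how their reads divide between them is uncertain.

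Chaperone genes that were already abundant rose by smaller factors. hsp-110, the HSP110 nucleotide exchange factor, had 327, 341 and 360 CPM at 20 °C and 2489, 2117 and 2332 CPM at 37 °C (log2FC 2.76 ± 0.09, edgeR FDR 6.2e-12). hsp-90, the cytosolic HSP90, had 1756, 1861 and 1798 CPM and 5482, 5056 and 4777 CPM (log2FC 1.5 ± 0.08, edgeR FDR 1.7e-09). hsp-1, the constitutive cytosolic HSP70, had 1222, 1265 and 1354 CPM and 2600, 2699 and 2786 CPM (log2FC 1.07 ± 0.09, edgeR FDR 9.7e-08). The heated libraries lay above the unheated ones in all of these genes, and hsp-90 and hsp-1 missed the 4-fold limit. The 5 inducible genes hsp-70, hsp-16.2, hsp-16.41, F44E5.4 and F44E5.5 together took 0.0042% to 0.00496% of all counts at 20 °C and 0.709% to 0.977% at 37 °C. With hsp-110, hsp-1 and hsp-90 the share went from 0.348% to 0.369% up to 1.73% to 2.08%.

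**Figure D2:**
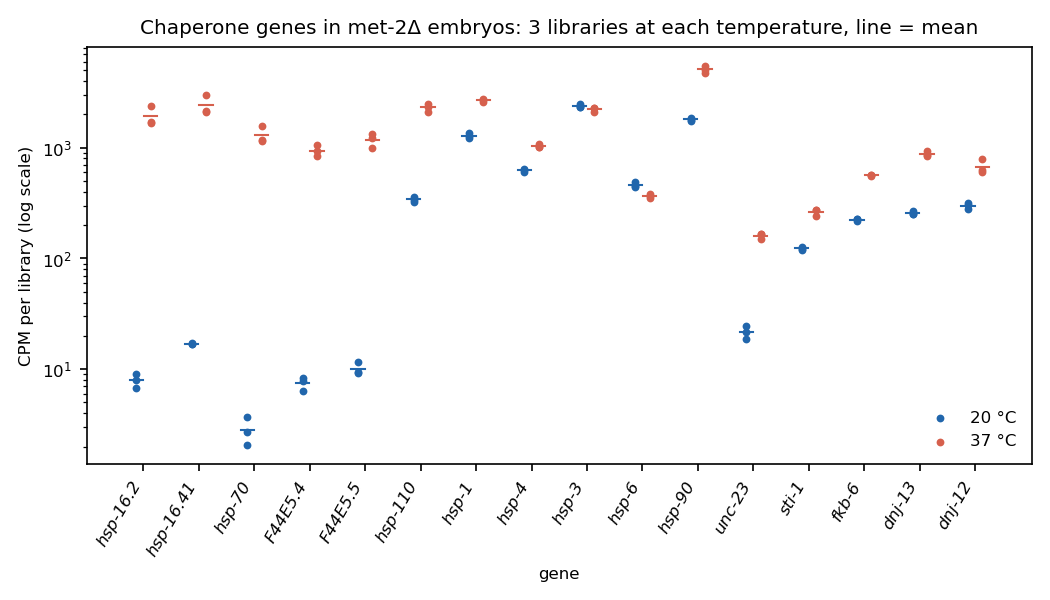
CPM of 16 chaperone genes (log axis) in the 3 met-2Δ libraries at 20 °C (blue) and the 3 at 37 °C (orange), with a line at each mean. The 5 inducible genes at the left run from 2.06 to 17.3 CPM unheated and from 838 to 3015 CPM heated. hsp-3 and hsp-6 are lower in each heated library, hsp-3 only slightly and without passing the test (edgeR FDR 0.25).

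The HSP70 family had 10 tested members, including those described above. Of these, 6 rose (60.0%, against 17.3% of all tested genes) and 2 fell (20.0%, against 21.2%). Their median log2FC was 0.90. The endoplasmic reticulum (ER) HSP70 hsp-4, a target of the unfolded protein response, rose from 605, 637 and 636 CPM to 1081, 1012 and 1014 CPM (log2FC 0.73 ± 0.07, edgeR FDR 7.9e-07). Its paralogue hsp-3, the constitutive ER form, had a log2FC of -0.10 ± 0.07 (edgeR FDR 0.25). The mitochondrial HSP70 hsp-6 fell by 0.33 ± 0.08 on the log2 scale (edgeR FDR 0.0018), a call that was lost without replicate a of the 37 °C group (edgeR FDR 0.011). stc-1, an HSP70 relative, fell by 0.59 ± 0.07 (edgeR FDR 4.3e-06).

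Among HSP90 and its co-chaperones, 7 of 13 tested genes rose (53.8%, against 17.3% of all tested genes) and 0 fell (median log2FC 0.42). The member called by fold was unc-23, a BAG-domain co-chaperone of HSP70 that muscle attachment requires. It had 24.7, 18.9 and 21.6 CPM at 20 °C and 165, 149 and 165.8 CPM at 37 °C (log2FC 2.88 ± 0.26, edgeR FDR 3.4e-07). The immunophilin fkb-6 (log2FC 1.33 ± 0.07), the HSP70-HSP90 adaptor sti-1 (1.09 ± 0.08), the ATPase activator ahsa-1 (0.70 ± 0.10), the myosin chaperone unc-45 (0.46 ± 0.06) and the nucleotide exchange factor bag-1 (0.42 ± 0.06) also rose. The kinase co-chaperone cdc-37 (0.03 ± 0.08), the mitochondrial HSP90 hsp-75 (0.02 ± 0.06) and the ER HSP90 enpl-1 (-0.03 ± 0.08) did not pass the test.

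The DNAJ list moved in both directions. Of 29 tested members 6 rose, led by dnj-13, a partner of cytosolic HSP70, with 252, 266 and 252 CPM at 20 °C and 927, 869 and 846 CPM at 37 °C (log2FC 1.78 ± 0.09, edgeR FDR 1.1e-09). dnj-24 (1.23 ± 0.16), dnj-12 (1.18 ± 0.14) and dnj-19 (0.69 ± 0.06) followed. The rises were 20.7% of the list, against 17.3% of all tested genes. Falls were found for 11 members (37.9%, against 21.2%), all of them small (log2FC -0.24 to -0.52), and the median was -0.26. The number of falls was not stable: it was 7 without replicate a and 3 without replicate b of the 20 °C group, and 5 without replicate a and 6 without replicate c of the 37 °C group. In the cytosolic chaperonin and prefoldin list 6 of 14 members rose, all of them subunits of the CCT ring, from cct-5 (0.24 ± 0.06) to cct-7 (0.73 ± 0.09). The prefoldin genes pfd-2 (-0.36 ± 0.10) and pfd-3 (-0.36 ± 0.10) fell, and both calls were lost without replicate a or b of the 20 °C group or replicate a or c of the 37 °C group. Rises were 42.9% and falls 14.3% of this list, against 17.3% and 21.2% of all tested genes.

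Of 10 other small heat shock protein genes tested, 3 rose (6 with only the compared groups in the fit and 5 by the likelihood ratio test): hsp-17 from 0.811 to 3.86 CPM (log2FC 2.23 ± 0.27, edgeR FDR 8.2e-06), hsp-25 from 19.3 to 36.7 CPM (0.93 ± 0.23, edgeR FDR 0.0029) and F08H9.3 from 4.30 to 7.22 CPM (0.74 ± 0.17, edgeR FDR 0.0019). sip-1, a small heat shock protein of oocytes and embryos and by far the most abundant of them, fell from 1116, 1095 and 1122 CPM to 526, 618 and 708 CPM (log2FC -0.85 ± 0.14, edgeR FDR 0.00016). The unheated libraries lay close together, and the heated ones were lower and more scattered. The summed CPM of these 10 genes was lower after heat, 635 to 809 against 1154 to 1179.

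Among regulators of stress responses, 3 of 15 rose (20.0%, against 17.3% of all tested genes) and 2 fell (13.3%, against 21.2%). hsf-1 itself had a log2FC of 0.05 ± 0.08 (edgeR FDR 0.61), and hsb-1, which encodes a protein that binds and inhibits HSF-1, one of -0.20 ± 0.09 (edgeR FDR 0.074). ddl-1, another inhibitor of HSF-1, fell by 0.87 ± 0.10 (edgeR FDR 4.0e-06). On the side of the ER, the stress kinase gene pek-1 rose from 129, 131 and 141 CPM to 265, 283 and 258 CPM (log2FC 1.01 ± 0.08, edgeR FDR 7.7e-08) and xbp-1 by 0.66 ± 0.06 (edgeR FDR 7.95e-07), whereas atf-6 fell by 0.40 ± 0.07 (edgeR FDR 0.00036). The third regulator that rose was pqm-1, from 3.87 to 7.39 CPM (0.94 ± 0.18, edgeR FDR 0.00057). Neither listed ubiquitin gene passed the test, with ubq-1 at 0.17 ± 0.07 (edgeR FDR 0.051) and ubq-2 at 0.06 ± 0.10. Of 33 proteasome genes 1 rose, the regulatory particle subunit rpn-3 (0.74 ± 0.06), and 7 fell (21.2%, the same share as in all tested genes).

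Of the 10 called genes with the largest rise in CPM, 4 were not chaperone genes. hsp-90 and hsp-1, below the 4-fold limit, are not among these 10 although their rise in CPM was larger than that of some of them. The pseudogene WBGene00012618 had 2.14, 3.37 and 2.83 CPM at 20 °C and 1035, 585 and 774 CPM at 37 °C (log2FC 8.16 ± 0.28, edgeR FDR 1.2e-11). asns-2, an asparagine synthetase gene, rose from 197, 184 and 219 CPM to 1553, 2023 and 1796 CPM (3.16 ± 0.25, edgeR FDR 1.0e-07). R107.5 (2.85 ± 0.11) went from 177 to 1280 CPM, and ttll-12, a tubulin tyrosine ligase-like gene, from 80.3 to 854 CPM (3.41 ± 0.13). These genes had no overlap between the temperatures, and asns-2 was the one among them in which replicate a was not the highest heated library.

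By fold, the called genes with at least 5 CPM at 37 °C and no overlap were led, hsp-70, hsp-16.2 and WBGene00012618 apart, by genes that were nearly off at 20 °C. Other genes with fitted values of up to 9.59 stayed below 5 CPM, and the highest of them had no read at 20 °C, so that their values depend on the prior count. Y38H6C.8 rose from 0.311, 0.254 and 0.248 CPM to 93.2, 68.9 and 72.9 CPM (log2FC 8.15 ± 0.26, edgeR FDR 4.9e-12) and Y17D7C.2 from 0.427, 0.580 and 0.248 CPM to 91.9, 55.8 and 59.01 CPM (7.30 ± 0.33, edgeR FDR 3.5e-10). Of the 10 genes with the highest fold under these limits, 4 belong to families of chemoreceptors, G protein-coupled receptors that sensory neurons of the worm use to detect odours and tastes. sre-48 had 4, 1 and 1 reads at 20 °C and 330, 287 and 236 reads at 37 °C (log2FC 7.43 ± 0.42, edgeR FDR 2.4e-09). srw-10, srh-118 and srsx-6 had 0 to 2 reads in each unheated library and 91 to 214 reads in each heated one, so their fitted log2FC values of 7.53 to 8.10 depend on a handful of reads. bath-34, a gene with MATH and BTB domains, combined a high fold with a substantial level, 3.38, 3.04 and 3.42 CPM against 150, 145 and 142 CPM (log2FC 5.47 ± 0.10, edgeR FDR 9.6e-15).

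Chemoreceptor genes were the family with the most calls among those listed. The table held 1293 of them, of which 396 passed the filter on low counts, which keeps genes that reach the minimum in any group, WT at 37 °C included. Of the 396, 157 rose and 25 fell, and 130 (32.8%) were called higher, against 6.30% of all tested genes. The median log2FC was 1.52. Their summed level went from 213 to 221 CPM at 20 °C to 583 to 634 CPM at 37 °C. The number that rose was 103 with only the compared groups in the fit or with a minimum of 1 CPM. The number that fell was 14 to 16 without replicate a or b of the 20 °C group, or a or c of the 37 °C group. In the same way 47 of 116 tested cuticle collagen genes rose (40.5%, against 17.3% of all tested genes). A fall was found in 1 (0 to 3 with 1 library left out), and the median was 0.97. Among the collagen genes that rose, col-88 went from 0.195 to 10.54 CPM (5.67 ± 0.39, edgeR FDR 2.1e-08). Of 72 hedgehog- and patched-related genes 20 rose (27.8%, against 17.3% of all tested genes) and 0 fell (median 0.74), and 41 rose with only the compared groups in the fit. Of 114 C-type lectin genes 31 rose (27.2%, against the same 17.3%) and 3 fell. The rises numbered 18 without replicate a of the 37 °C group, and the falls 1 without replicate a of the 20 °C group.

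F-box genes of the fbxa, fbxb and fbxc families, which encode adaptors of ubiquitin ligases, went mostly the other way. Of 262 tested, 109 fell (41.6%, against 21.2% of all tested genes) and 39 rose (14.9%, against 17.3%). Their median log2FC was -0.38, and their summed level dropped from 4438 to 4562 CPM at 20 °C to 2817 to 3040 CPM at 37 °C. The family held members at both ends: fbxb-17 fell from 63.6, 69.5 and 65.2 CPM to 7.21, 7.95 and 5.46 CPM (log2FC -3.25 ± 0.15, edgeR FDR 3.7e-10), whereas fbxa-194 rose from 0.196 to 13.4 CPM (6.19 ± 0.39, edgeR FDR 7.5e-09). Nuclear hormone receptor genes showed no common direction, with 37 that rose and 36 that fell of 216 and a median of 0.04, that of all genes.

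The 10 largest falls among genes with at least 5 CPM included F-box genes and an sdz gene, a zygotic transcript. ZK662.5 (chromosome X, 15721646 to 15723851) had 10.1, 9.46 and 9.57 CPM at 20 °C and 0.259, 0.759 and 0.240 CPM at 37 °C (log2FC -4.45 ± 0.31, edgeR FDR 2.4e-08). sdz-18 had 20.3, 21.6 and 17.9 CPM and 1.76, 2.59 and 1.56 CPM (-3.32 ± 0.16, edgeR FDR 7.1e-10), and bath-31 33.5, 35.5 and 30.1 CPM and 3.32, 4.11 and 3.60 CPM (-3.16 ± 0.14, edgeR FDR 3.4e-10). The groups were far apart in each. T26E3.5 (-3.04 ± 0.21), acdh-1, an acyl-CoA dehydrogenase gene of mitochondria (-2.89 ± 0.24), T27E9.6 (-2.72 ± 0.18), fbxb-85 (-2.61 ± 0.16), F45D3.1 (-2.60 ± 0.15) and R06C1.4 (-2.46 ± 0.12) completed the 10 genes with the lowest log2FC. R06C1.4 was the most abundant of the 10, at 99.2, 83 and 86.3 CPM before and 16.17, 18.3 and 14.1 CPM after the heat.

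Most genes on 2 lists of transcripts that the early embryo itself makes fell, against 21.2% of all tested genes. The sdz genes, named for zygotic expression that depends on the maternal factor SKN-1, had 25 of 31 tested members that fell and 1 that rose, sdz-1 (0.58 ± 0.13), a rise that was lost without replicate c of the 20 °C group or replicate a of the 37 °C group. Their median was -1.08 and 7 were called lower, sdz-12 with the lowest value (3.18 to 0.283 CPM, log2FC -3.43 ± 0.32). Of 16 early zygotic transcription factor genes 12 fell and 0 rose, with a median of -0.80. The mesoderm factor ceh-51 fell from 21.5, 20.4 and 16.9 CPM to 7.21, 8.08 and 8.46 CPM (log2FC -1.31 ± 0.13, edgeR FDR 7.4e-07) and the epidermal GATA factor elt-1 from 135, 131 and 135 CPM to 62.1, 66.3 and 53.7 CPM (-1.13 ± 0.09, edgeR FDR 7.4e-08). The muscle factors hnd-1 (-1.07 ± 0.10) and hlh-1 (-0.94 ± 0.08), the endoderm factors end-3 (-1.05 ± 0.21) and end-1 (-0.82 ± 0.12) and the pharynx factor pha-4 (-0.76 ± 0.07) also fell.

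Of 19 maternal and germ granule genes 0 rose and 4 fell, a share of 21.1% against 21.2% of all tested genes, and the median was -0.10. With only the compared groups in the fit 3 rose and 8 fell. The 4 genes encode components of P granules, the RNA granules of the germ line. pgl-3 fell from 60.9, 69.4 and 71.3 CPM to 25.2, 32.8 and 28.8 CPM (log2FC -1.21 ± 0.11, edgeR FDR 5.1e-07), and glh-2 (-0.85 ± 0.16), deps-1 (-0.64 ± 0.09) and glh-4 (-0.62 ± 0.13) followed, whereas pgl-1 (-0.27 ± 0.10, edgeR FDR 0.029) and glh-1 (0.19 ± 0.13, edgeR FDR 0.26) did not pass. Histone genes fell in 22 of 37 tested cases (59.5%, against 21.2% of all tested genes). A rise was found in 1, his-35 (0.86 ± 0.13), or 2.70% against 17.3%. The linker histone gene his-24, at 890, 636 and 777 CPM before and 319, 462 and 544 CPM after heat, showed a log2FC of -0.80 ± 0.18 (edgeR FDR 0.0020). Another 31 histone genes of the table had 0 counts in all 6 libraries, and many histone genes are near-identical copies. Of 8 SR splicing factor genes 5 fell (62.5%, against the same 21.2%) and 0 rose. The number that fell was 3 without replicate a or b of the 20 °C group or replicate a of the 37 °C group.

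Of 10 body wall muscle genes 9 rose and 0 fell, against 17.3% and 21.2% of all tested genes, with a median of 1.31. unc-54, the major myosin heavy chain, had 255, 113 and 281 CPM at 20 °C and 761.5, 543 and 857 CPM at 37 °C (log2FC 1.74 ± 0.39, edgeR FDR 0.0018). The groups did not overlap, and replicate b was the lowest at both temperatures. The summed level of the 10 genes was 1040 to 1392 CPM at 20 °C and 2998 to 3635 CPM at 37 °C. In the pharynx list 5 of 8 genes rose, the myosins myo-2 (43.3, 31.6 and 34.4 CPM against 168, 133 and 145 CPM, log2FC 2.03 ± 0.27, edgeR FDR 1.5e-05) and myo-1 (1.68 ± 0.31), and the troponins tnt-4, tni-4 and tnc-2. A single member, marg-1, fell (-0.99 ± 0.26), a call that was lost without replicate a or b of the 20 °C group or any 1 of the 37 °C libraries. The list summed to 99.0 to 126 CPM before and 335 to 398 CPM after heat.

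Markers of other tissues moved in both directions or in fewer of their members. Of 11 epidermis and cuticle genes the collagen gene sqt-3 rose (0.76 ± 0.19), a call lost without replicate b or c of either group, and 3 fell: bli-1 from 1.93 to 0.351 CPM (-2.45 ± 0.33, edgeR FDR 2.3e-05), bli-2 (-1.17 ± 0.22) and lin-26 (-0.30 ± 0.06). Rises were 9.09% and falls 27.3% of this list, against 17.3% and 21.2% of all tested genes. With only the compared groups in the fit 5 epidermis, 10 neuron and 4 intestine genes rose. Of 11 neuron genes 6 rose (54.5%, against the same 17.3%) and 0 fell (median 0.70). The number that rose was 3 without replicate b of the 20 °C group and 2 or 3 without any 1 of the 37 °C libraries. In the intestine list of 9 genes act-5 (0.84 ± 0.21) and ifb-2 (1.06 ± 0.29) rose, although ifb-2, act-5 or both missed the limit when any 1 of the 6 libraries was left out, and elt-2 and spl-1 fell. Rises and falls were each 22.2% of this list, against 17.3% and 21.2% of all tested genes. These are populations of whole embryos, in which a different share of cells of a type and a different amount of RNA per cell cannot be told apart. A difference in the mean stage of the embryos between temperatures was not tested.

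**Figure D3:**
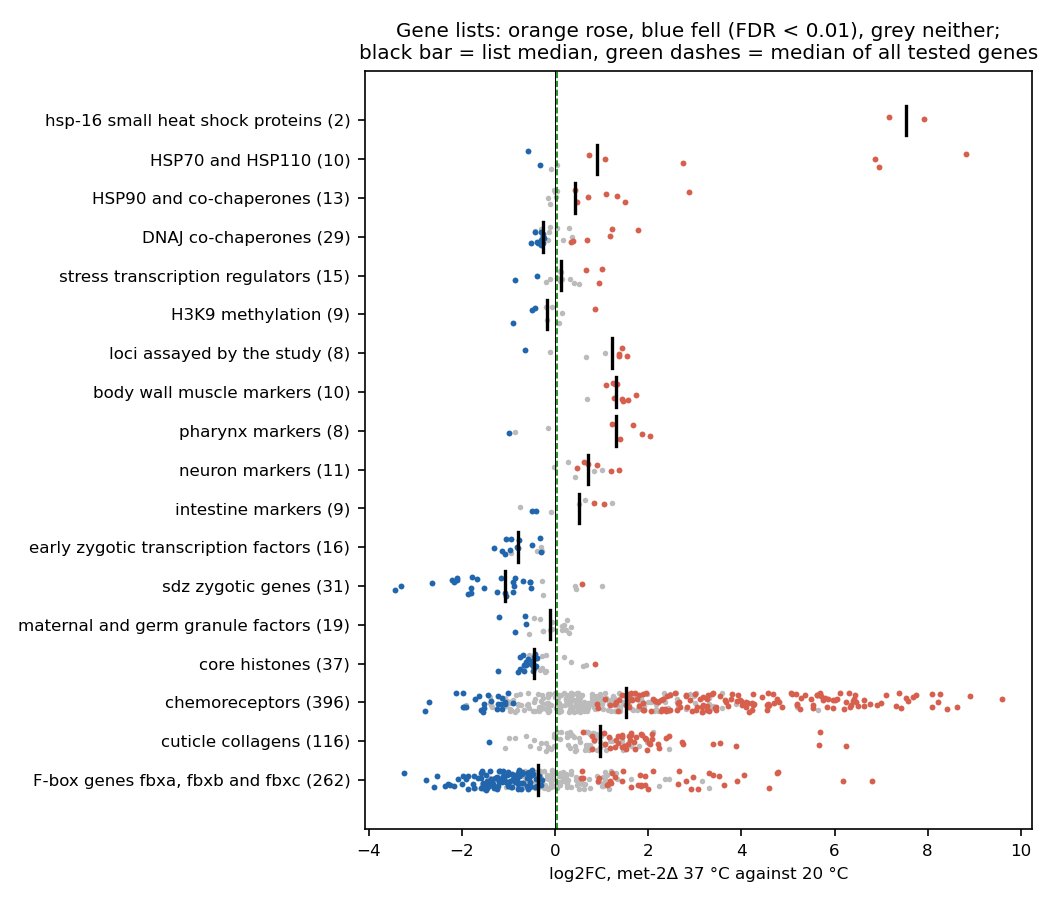
Log2FC between 37 °C and 20 °C in met-2Δ embryos for each tested member of 18 gene lists (rows, with the number tested). Orange points rose, blue points fell (edgeR FDR below 0.01) and grey points did neither, black bars are list medians and the green dashed line is the median of all tested genes, 0.04. Medians run from -1.08 for the sdz genes to 7.54 for the hsp-16 pair.

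Genes of the H3K9 methylation pathway showed small changes. met-2 transcript, reduced as described above, rose by 0.85 ± 0.06 on the log2 scale (edgeR FDR 1.5e-08). Both genes for heterochromatin protein 1 fell: hpl-1 from 16.9, 14.6 and 13.04 CPM to 7.57, 7.86 and 8.28 CPM (log2FC -0.91 ± 0.11, edgeR FDR 4.9e-06) and hpl-2 from 96.7, 103 and 98.7 CPM to 68.8, 71.8 and 71.0 CPM (-0.49 ± 0.06, edgeR FDR 1.4e-05). cec-4, which anchors methylated chromatin at the nuclear rim, fell by 0.43 ± 0.07 (edgeR FDR 0.00010). The methyltransferase set-25 (-0.06 ± 0.09, edgeR FDR 0.60) and the MET-2 cofactors lin-65 (0.09 ± 0.07, edgeR FDR 0.28) and arle-14 (-0.19 ± 0.08, edgeR FDR 0.070) did not pass the test.

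The study followed 8 loci individually, 7 as examples of genes that MET-2 represses and unc-119 as a gene independent of it. The study chose them on these samples, so their behaviour is not independent evidence. Heat raised 4 of them further in the absence of MET-2. bcl-11 had 17.4, 10.1 and 12.7 CPM at 20 °C and 39.4, 34.6 and 42.8 CPM at 37 °C (log2FC 1.54 ± 0.22, edgeR FDR 3.5e-05). nep-17, a neprilysin-type protease gene, had 60.4, 47.0 and 58.2 CPM and 156, 142 and 150 CPM (1.44 ± 0.35, edgeR FDR 0.0032), a call lost without replicate b or c of the 20 °C group (edgeR FDR 0.015 and 0.011) or replicate a of the 37 °C group (0.011). F10D11.6 (1.38 ± 0.22) and grl-16 (1.37 ± 0.22) rose as well. col-166 (1.08 ± 0.34, edgeR FDR 0.015) and glf-1 (0.67 ± 0.41, edgeR FDR 0.18) missed the limit although their libraries did not overlap between temperatures. With only the compared groups in the fit both passed (edgeR FDR 8.3e-05 and 1.4e-06). C55C3.3 was at 12.7, 12.9 and 12.9 CPM before and 11.4, 11.2 and 12.9 CPM after heat and thus overlapped. unc-119 fell by 0.64 ± 0.08 (edgeR FDR 8.4e-06).

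To see where the heat response of met-2Δ differed from that of WT, the difference of the 2 log2FC values was tested in the same edgeR model (interaction, met-2Δ minus WT). The interaction passed an FDR of 0.01 in 7749 genes (50.1%), negative in 4175 and positive in 3574. Scaling by library totals alone gave 5109 and 2458, and moved the median interaction of all genes from -0.150 to -0.363. The balance of signs turned when 1 unheated library was left out: negative and positive values numbered 3410 and 3714 without replicate a and 3516 and 3722 without replicate b of met-2Δ at 20 °C. They numbered 3640 and 3835, 3712 and 3956, and 3762 and 3916 without replicate a, b or c of WT at 20 °C. In WT the same thresholds called 4364 genes (28.2%) higher and 622 (4.02%) lower, against 975 and 82 in met-2Δ. At these thresholds the paper, which used a larger pseudocount, reports fewer WT genes in both directions. The WT libraries held 45.83 to 58.84 M counts at 20 °C and 24.38 to 27.13 M at 37 °C. The unheated WT group was thus deeper than the others compared, and its scaling factors were 0.88 to 0.91, against 1.01 to 1.07. With all libraries thinned to the smallest, the interaction passed in 6246 genes, negative in 3162 and positive in 3084. The number of WT calls at equal depth was not tested.

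The genes called higher in met-2Δ were mostly heat-responsive in WT too. Of the 975, 950 (97.4%) rose in WT, against 44.0% of all tested genes, and 919 (94.3%) were called there, which is 21.1% of the WT calls. The median log2FC of the 975 was 3.18 in met-2Δ and 4.47 in WT. The interaction was negative in 181 of them, positive in 34 and did not pass in 760. Of the 82 genes called lower, 73 fell in WT, against 35.6% of all genes, and 61 (74.4%) were called, 9.81% of the WT calls. Their medians were -2.31 in met-2Δ and -2.63 in WT, with 17 positive and 7 negative interactions. Because the same met-2Δ libraries chose the genes and enter the interaction, these counts are descriptions.

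The inducible chaperones showed both kinds of response. hsp-70 had log2FC values of 8.83 in met-2Δ and 8.49 in WT, with an interaction of 0.34 ± 0.31 (edgeR FDR 0.36). For hsp-16.2 the change was larger in met-2Δ, 7.91 against 6.91 (interaction 1.00 ± 0.23, edgeR FDR 0.0014), with lower levels at both temperatures, since WT went from 23.2 ± 3.54 to 2800 ± 418 CPM. For hsp-16.41 the values were 7.16 and 6.54, and the difference missed the limit (interaction 0.62 ± 0.20, edgeR FDR 0.014), although it passed under several alternative settings. F44E5.4 and F44E5.5 differed most. In WT their means were 0.0987 and 0.0784 CPM at 20 °C, a few reads per library, and 1358 and 1676 CPM at 37 °C. The interactions were -6.68 ± 0.25 and -7.39 ± 0.28 (edgeR FDR 4.4e-11 and 4.5e-11). The unheated met-2Δ means of 7.52 and 10.04 CPM lay far above those of WT, and the heated means of 940 and 1182 CPM below those of WT. Among abundant chaperones hsp-90 (interaction -1.41 ± 0.11), hsp-110 (-1.09 ± 0.12), hsp-4 (-0.98 ± 0.10) and hsp-1 (-0.52 ± 0.12) rose less in met-2Δ. Their met-2Δ means at 20 °C were above those of WT: 1805, 342, 626 and 1280 CPM against 1030, 227, 426 and 1181 CPM. At 37 °C they were below: 5105, 2313, 1036 and 2695 CPM against 7725, 3280, 1393 and 3559 CPM. In contrast, bag-1 (0.58 ± 0.09) and dnj-19 (0.57 ± 0.09) had positive interactions, and dnj-13 (0.09 ± 0.13) and ahsa-1 (0.08 ± 0.13) did not pass. The interaction of hsp-1 missed the limit without replicate a of WT at 20 °C (-0.39, edgeR FDR 0.011).

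At 6 of the loci the study followed, WT changed far more. bcl-11, nep-17, F10D11.6, grl-16, col-166 and glf-1 went from 0.174 to 3.11 CPM up to 20.1 to 253 CPM in WT, log2FC values of 5.33 to 6.92, and their interactions ranged from -4.65 to -5.83. After heat the WT means were above the met-2Δ means at each of these 6. The edgeR test between the genotypes at 37 °C passed only for F10D11.6 (FDR 0.0022) and grl-16 (FDR 0.0040). It did not pass for nep-17, col-166, glf-1 and bcl-11 (edgeR FDR 0.095 to 0.28). The muscle and pharynx genes had the same sign: the interaction was negative in all 10 body wall muscle genes and in 5 of 8 pharynx genes, and the list medians were 3.50 and 5.85 in WT against 1.31 and 1.31 in met-2Δ. Cuticle collagens had medians of 4.07 in WT and 0.97 in met-2Δ, and negative interactions in 74 of 116 genes, whereas chemoreceptors had medians of 2.89 and 1.52 and negative interactions in 54 of 396 genes. Over all tested genes 4175 of 15471 were negative. Falls were also smaller in met-2Δ in part of the genes that fell: fbxb-17 (interaction 1.04 ± 0.21), F45D3.1 (1.34 ± 0.22), hpl-1 (1.52 ± 0.15) and hpl-2 (1.03 ± 0.09) fell less than in WT. For the latter pair the levels before heat were lower in met-2Δ, 14.8 and 99.4 CPM against 43.8 and 206 CPM, and the levels after heat were close, 7.90 and 70.6 CPM against 8.13 and 71.3 CPM.

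**Figure D4:**
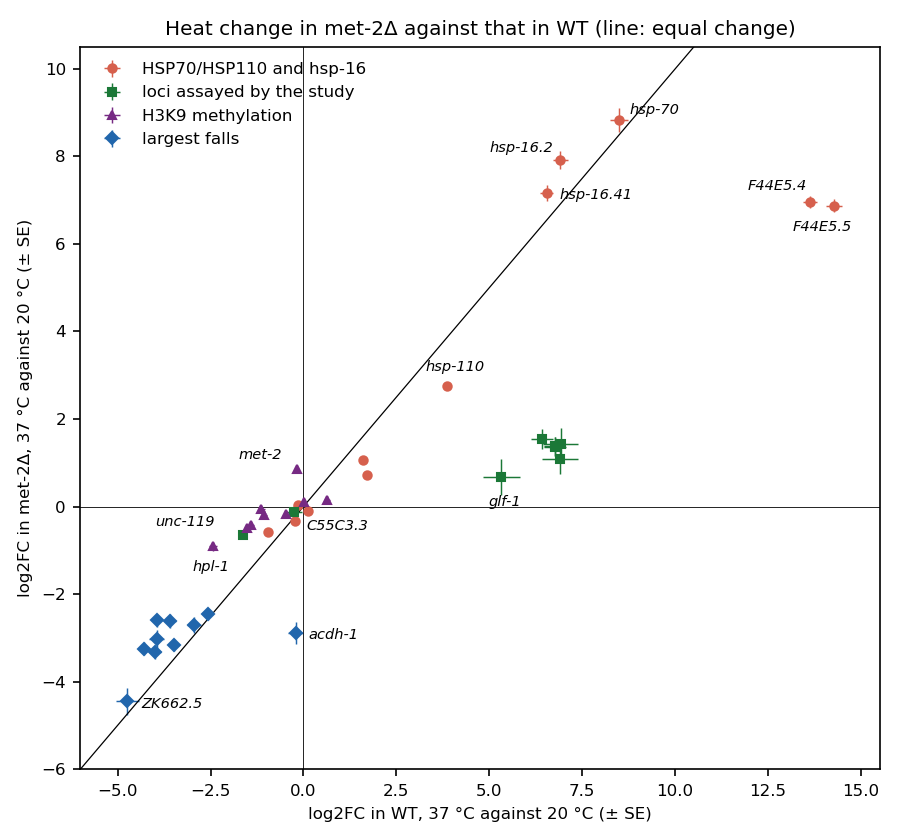
Log2FC between 37 °C and 20 °C in WT (x axis) and in met-2Δ (y axis) with SE bars (3 libraries per group) for HSP70/HSP110 and hsp-16 genes, 8 loci followed by the study, H3K9 methylation genes and the 10 largest falls. Points on the diagonal changed equally. hsp-70 lies near it (8.83 and 8.49), F44E5.4, F44E5.5 and 6 of the loci lie far to its right, and acdh-1 lies below it (-2.89 and -0.21).

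A small set changed more in met-2Δ than in WT. Of the 975 genes, 23 were called higher in met-2Δ with a positive interaction and were not called higher in WT. The following examples were chosen after their values were seen. tbc-20 rose from 46.2 to 200 CPM in met-2Δ and from 68.0 to 162 CPM in WT (interaction 0.86, edgeR FDR 0.0017). The pseudogene WBGene00018862 went from 1.84 to 18.1 CPM in met-2Δ and from 24.2 to 33.5 CPM in WT (2.83, edgeR FDR 1.7e-07), and Y51A2D.21 from 1.07 to 7.81 CPM against 5.87 to 5.91 CPM (2.87, edgeR FDR 3.0e-06). In the insulin-like gene ins-30 (4.16 against 2.45) and the nuclear hormone receptor gene nhr-247 (4.99 against 2.69) both genotypes were called.

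Among genes that fell, acdh-1 went from 7.96, 9.68 and 7.98 CPM to 1.04, 1.12 and 1.32 CPM in met-2Δ, whereas WT had 6.49 ± 0.64 and 5.602 ± 1.06 CPM (interaction -2.68 ± 0.31, edgeR FDR 3.6e-06). Also chosen after their values were seen were the eggshell proteoglycan gene cpg-1 (948 to 227 CPM, interaction -0.83, edgeR FDR 0.0076) and the yolk receptor gene rme-2 (113 to 21.3 CPM, interaction -0.85, edgeR FDR 0.0097). These mRNAs are made in the oocyte, and their heated levels in WT were close to those in met-2Δ, 237 and 21.6 CPM. WBGene00018020, which the reference annotation does not place, had 1, 2 and 0 reads in unheated met-2Δ and 222, 163 and 116 reads after heat, whereas WT had 12.96 ± 0.75 CPM at 20 °C and 8.54 ± 1.65 CPM at 37 °C. The interaction was 8.19 ± 0.47 (edgeR FDR 3.7e-09).

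Genes called higher often lay beside each other. Of the 952 with a position in the annotation, 523 (54.9%) had a called gene as the next tested gene on at least 1 side, against 11.1% of all tested genes with a position. They formed 77 runs of at least 3 genes that held 311 genes in all, and the longest run had 11 genes, F40A3.7 to F26D11.13 (chromosome V, 7895511 to 7954652, with srsx-6 inside). Neighbouring pairs with both genes called were about as frequent on the same strand (194 of 8000, 2.42%) as on opposite strands (146 of 7149, 2.04%). Chromosome V held 365 of the calls, 37.4% of them, from 3136 tested genes, whereas on the other nuclear chromosomes 3.50% to 6.17% of the tested genes were called. For genes called lower, 8 of 81 had a called neighbour (9.88%, against 1.07% of all) and no run reached 3 genes.

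The hsp-16 pair lay within such a run. hsp-16.2 and hsp-16.41 start 0.22 kb apart and are transcribed away from each other, and the 7 consecutive tested genes F36H9.1, srt-41, hsp-16.2, hsp-16.41, srt-42, Y46H3A.4 and Y46H3A.5 (chromosome V, 1794518 to 1814884) were all called higher. srt-42, a chemoreceptor gene downstream of hsp-16.41 on the same strand, rose from 1.48 to 128 CPM, with no overlap between libraries (log2FC 6.43, edgeR FDR 3.5e-10). srt-41, on the other side and on the strand of hsp-16.2, rose from 0.137 to 8.81 CPM (5.98), and Y46H3A.5, on the opposite strand to hsp-16.41, from 1.4 to 38.5 CPM (4.77). Around WBGene00012618 7 of 24 tested genes within 50 kb were called, itself and Y38H6C.8 included, against 6.30% of all tested genes. Fewer genes were called around the HSP70 genes. Around F44E5.5 these were 4 of 19, itself and F44E5.4 included. Around hsp-70 they were 2 of 16, itself and uggt-2, whose annotated span covers hsp-70 on the opposite strand. The genes at the centre were picked because they were induced, so these counts are descriptions and are raised by them. Reads that run past the end of an induced gene were not separated from those of its neighbours in these counts.

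**Figure D5:**
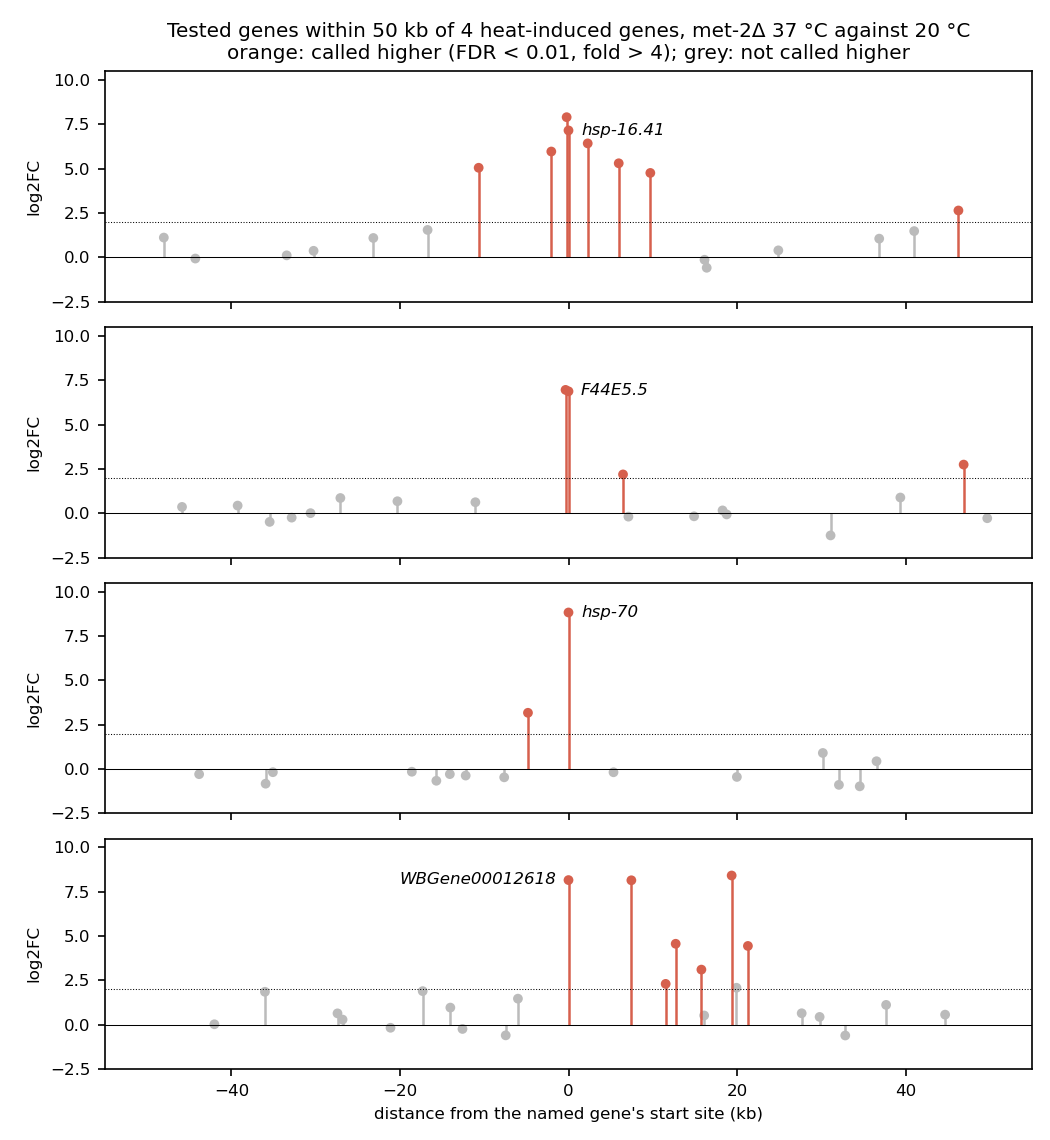
Log2FC between 37 °C and 20 °C in met-2Δ embryos of each tested gene whose start lies within 50 kb of the start of hsp-16.41, F44E5.5, hsp-70 or WBGene00012618 (x axis, distance in kb). Orange stems are called higher and grey stems are not, and the dotted line marks 4-fold. Called genes number 8 of 19 around hsp-16.41, 4 of 19 around F44E5.5, 2 of 16 around hsp-70 and 7 of 24 around WBGene00012618. Each count includes the named gene itself, and 6.30% of all tested genes were called higher.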

How the data were processed

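RNA of early embryos was depleted of ribosomal RNA and sequenced by the authors. The deposited values are whole read counts per gene, which the authors obtained by trimming with Trimmomatic, aligning to the ce10 assembly with hisat2 through QuasR, and counting uniquely aligned reads on the strand of the gene over WormBase exons. No replicates were pooled. The labels and the methods name different stranded library kits. Groups came from the sample labels, and the letters a, b and c of the replicates from the column names of the table.

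After TMM scaling and filtering with filterByExpr, edgeR 4.0.16 (under R 4.3.3, with limma 3.58.1) fitted its quasi-likelihood model and gave F tests, in 1 model with 5 group means over all 15 libraries, which share the estimate of the spread. Adjustment of p-values followed Benjamini and Hochberg across 15471 genes. Genes were called at FDR below 0.01 and a fold above 4, the thresholds of the study for temperature. The study added a pseudocount larger than the prior count used here and reports fewer WT genes in both directions. Its counts are therefore not directly comparable with these. Fitted fold changes used a prior count of 0.125, and SE values derive from the F statistic. The procedure was also run on simulated counts in which few genes changed, a simpler case than these data, so it checks the code only. A floor of 3 counts was 0.109 to 0.18 CPM in the 6 met-2Δ libraries, and floors cover counting error only. Symbols (94.1% of genes) and positions (97.4%) came from the WBcel235 annotation by gene identifier, without conversion from ce10. RPKM values used its exon lengths.

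Genes were named by rule: among called genes without overlap between temperatures and with at least 5 CPM in the higher group, the 10 highest and 10 lowest by log2FC and the 10 with the largest rise in CPM, the members of the heat shock, regulator, H3K9 methylation, study locus, embryonic and cell type lists, and the 2 highest and 2 lowest of the other lists. Of 216 listed symbols 211 were found. The members and lists were chosen with earlier results of these data known. No paired libraries were assumed, and no replicate pair agreed within sampling noise (chi-square per degree of freedom 6.63 to 16.1). Promoter motifs were not analysed here. Alternatives included other scalings, filters, tests (DESeq2 1.42.0 among them), sample sets and each replicate left out.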

Additional observations from a re-analysis of the deposited data

Results flagged for a closer look

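For 30 of the 50 named genes with an interaction value, the heat change in met-2Δ differed from that in WT by the interaction test of edgeR (FDR below 0.01), against 50.1% of all tested genes. The values below are log2FC in met-2Δ minus log2FC in WT, negative in 16 genes and positive in 14.

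Among heat shock genes the difference was 1.00 for hsp-16.2, -1.09 for hsp-110, -7.39 for F44E5.5, -6.68 for F44E5.4, -0.52 for hsp-1, -0.98 for hsp-4 and 0.36 for stc-1. In the genes with the largest rises it was -1.70 for WBGene00012618, 8.19 for WBGene00018020, -1.10 for asns-2 and -0.96 for ttll-12. In those with the largest falls it was 1.04 for fbxb-17, -2.68 for acdh-1, 0.98 for fbxb-85 and 1.34 for F45D3.1.

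In the H3K9 methylation list it was 0.86 for arle-14, -0.47 for set-32, 0.98 for cec-4, 1.03 for hpl-2, 1.52 for hpl-1, 1.03 for met-2, 0.30 for lin-61 and 1.08 for set-25. For the loci followed by the study it was -5.38 for F10D11.6, -4.87 for bcl-11, -5.49 for nep-17, -4.65 for glf-1, 0.99 for unc-119, -5.83 for col-166 and -5.41 for grl-16. Groups of 3 libraries are too small for a test of outlying samples.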

How the results depend on the processing

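The counts of 975 genes higher and 82 lower stayed within 1.5 times under the other scalings, filters, tests and sample sets. A fold limit of 2 gave 1977 and 665 genes, and a prior count of 8, added after seeing the data, 409 and 36. The study used a pseudocount of that size, and the number of WT calls with it was not tested. With each replicate left out in turn the counts ran from 848 to 944 higher, 75 to 101 lower and 7105 to 7678 for the interaction (7749 with all replicates). The replicate letters did not pair the libraries (correlations of deviations -0.02, 0.122 and 0.25), and a replicate block gave 949, 83 and 7494 genes. Under the block, of the named genes 1 call changed, the interaction of asns-2 (-1.09, edgeR FDR 0.014), which was also lost in 10 of the 12 fits without 1 library (edgeR FDR 0.0087 to 0.031 over the 12). For the 50 named genes, 793 of 800 refitted log2FC values kept their side of the threshold, 4 lost and 3 gained a call, and 999 of 1050 interactions did, with 30 lost and 21 gained. No direction of a call reversed. The interactions of stc-1 and lin-61 were lost under library totals (0.15 and 0.09) and in some fits without 1 library. Those of set-32 and WBGene00012618 were lost after thinning to the smallest library and in some fits without 1 library. The interaction of hsp-16.41 passed under the DESeq2 Wald test (0.67, FDR 0.0033). It also passed with DESeq2 size factors, the likelihood ratio test, no further filter, only the compared groups, and in some fits without 1 library. The causes were not tested. Genes near the floor of 3 counts, which make up much of the 975, are those whose fold depends most on the prior count.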
